A study of Mus musculus with 72 samples.

Results

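Direct joints are translocations in which the bait end and the prey end meet in the read with no base shared and none inserted. They were taken from the LAM-HTGTS junctions of 60 libraries as those with a prey on chromosomes 1 to 19 other than the bait chromosome and an overlap of 0 bp between the bait and the prey alignments. Of 169098 translocations, 33918 (20.1%) were direct, 27692 of 139259 in Xrcc4/p53-deficient cells and 6226 of 29839 in wild-type cells. The overlap length itself chose these joints, so their share is described below without a test. Just outside the rule lay 25046 translocations with a micro-homology of 1 bp (14.8%) and 5169 with an insertion of 1 bp (3.06%). Micro-homology of 1 bp or more made up 61.9% of all translocations and insertions of any length 18.0%.

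The study asked how DNA breaks at recurrent DNA-break clusters (RDCs) become copy-number changes and what polymerase theta (Pol θ) contributes. In LAM-HTGTS a Cas9 bait DSB is made at a known site, and a primer beside it reads through the junction into the prey DSB to which the bait end was joined. The Xrcc4/p53-deficient cells were neural progenitor cells derived from ES cells of a single line (Nxp010) of the genotype NestinCre+Xrcc4-/-p53-/-, so the controls of this genotype also lack Xrcc4 and p53. The wild-type cells were primary neural stem and progenitor cells (NSPC) from late embryonic mouse brain. Aphidicolin (Aph), an inhibitor of replicative DNA polymerases, was given at 0.5 µM for 72 h and then at 0.25 µM for 24 h. ART558, an inhibitor of the polymerase activity of Pol θ, was given at 5 µM for 72 h and then at 2.5 µM for 24 h, alone or with Aph, and DMSO was the solvent control. The labels number replicates without naming cultures. The reporting summary of the study calls the repeats technical in Xrcc4/p53-deficient cells and biological in wild-type cells, while a figure legend on Xrcc4/p53-deficient cells speaks of biological replicates, so that the spread behind the p-values in these cells may be technical.

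Non-homologous end-joining (NHEJ) seals DSB ends with little or no homology and needs Xrcc4, the partner of DNA ligase IV. Where NHEJ is missing, theta-mediated end-joining takes over, in which Pol θ pairs short homologies between resected ends and fills the remaining gaps. RDCs are regions, mostly in long neural genes, in which DSBs recur under mild replication stress.

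The bait DSBs give the fixed side of every direct joint, so the sequences of 3 of the 4 are shown first. Each guide is given 5′ to 3′ with its PAM in capitals.
chr6 guide: gagggttggaaatgctcgtaTGG
chr12 guide: attccgccaaccctcgagatAGG
chr14 guide: ggcttagttatagtaggggcTGG
In mm10 these guides lie at chr6:70950106-70950125 (minus strand), chr12:12994038-12994057 (plus strand) and chr14:83268830-83268849 (plus strand). The chr12 cut lies in the non-coding RNA gene Gm35208, and no annotated gene spans the chr6 and chr14 cuts.

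The bait stretches below run 5′ to 3′ from the primer towards the cut, and capitals mark the last bait base at the 5 bait ends that were most frequent among direct joints.
chr6 bait (minus strand, chr6:70950099-70950206): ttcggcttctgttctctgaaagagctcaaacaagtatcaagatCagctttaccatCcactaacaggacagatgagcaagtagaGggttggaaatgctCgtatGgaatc
chr12 bait (plus strand, chr12:12993923-12994064): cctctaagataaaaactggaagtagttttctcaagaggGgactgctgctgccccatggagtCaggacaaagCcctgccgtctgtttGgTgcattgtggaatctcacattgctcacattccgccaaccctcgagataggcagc
chr14 bait (plus strand, chr14:83268683-83268856): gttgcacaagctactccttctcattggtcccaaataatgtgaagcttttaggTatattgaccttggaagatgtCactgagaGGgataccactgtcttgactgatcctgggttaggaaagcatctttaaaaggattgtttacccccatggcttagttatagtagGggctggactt
From the primer to the cut the baits measured 98 bp (chr6), 129 bp (chr8), 132 bp (chr12) and 164 bp (chr14), and the last 10 printed bases lie beyond the cut. These lengths limit how much of the bait end could be lost in a joint that was still read.

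Libraries held 28 to 8194 translocations (median 2550.5) and 6 to 2174 direct joints (median 364.5). In the 54 libraries with at least 100 direct joints, the 95% Wilson interval of the direct share reached 0.566 to 3.37 percentage points to either side (counting error only, because the reads carry no molecular identifiers). Replicate 3 of ART558 with the chr8 bait held 6 direct joints among 28 translocations, and replicate 2 of DMSO with the chr14 bait held 30 among 133, 73.3% of them in repeat-masked prey sequence. Replicate 2 of ART558 with the chr6 bait had the highest direct share, 33.9%. The libraries came from 11 sequencing runs, and all 15 wild-type libraries from 1 run that held no Xrcc4/p53-deficient library. The genotypes also differ in cell source, primary brain cells against ES cell-derived cells. Genotype, cell source and run therefore cannot be told apart.

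In Xrcc4/p53-deficient cells, ART558 libraries held more direct joints than DMSO libraries with each of the 3 baits used for both. For the chr6 bait, direct joints were 19.5%, 33.9% and 23.9% of translocations in ART558 and 16.1% and 14.4% in DMSO. With the chr8 bait they were 24.1%, 23.6% and 21.4% in ART558 and 10.5%, 11.5% and 15.4% in DMSO. With the chr12 bait they were 29.8%, 32.9% and 32.2% in ART558 and 21.4% and 18.8% in DMSO. The groups did not overlap with any of these baits. The difference was 10.5, 10.6 and 11.5 percentage points for the chr6, chr8 and chr12 baits, and 10.9 points averaged over baits (9 against 7 libraries), or 11.01 points within shared sequencing runs (chr6 and chr12 baits). Without replicate 2 of ART558 with the chr6 bait, the library at 33.9%, the chr6 difference was 6.43 points and the average 9.52 points.

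Adding ART558 to Aph went with a smaller difference in the same direction, 5.63 percentage points averaged over the 3 baits (9 against 6 libraries). With the chr8 bait, direct joints were 22.5%, 26.2% and 26.4% with Aph + ART558 and 15.9%, 16.3% and 15.8% with Aph alone. With the chr12 bait they were 29.4%, 28.1% and 30.2% against 24.9% and 25.5%. Only with the chr6 bait did the groups overlap, at 25.3%, 24.9% and 19.1% against 19.3% in the single Aph library. With the chr8 and chr12 baits Aph and Aph + ART558 were sequenced in different runs, so that run and drug cannot be told apart there, and within a shared run the chr6 bait alone gave a value, 3.73 points. Aph libraries in turn held 3.53 points more direct joints than DMSO libraries over 4 baits (9 against 11 libraries), by 4.07, 3.51, 5.06 and 1.46 points for the chr6, chr8, chr12 and chr14 baits. With the chr14 bait the groups overlapped (16.0% to 17.6% in Aph, 12.2% to 22.6% in DMSO), and leaving out 1 DMSO library at a time moved its difference to between 0.387 points (without replicate 4) and 3.83 points (without replicate 2, of 30 direct joints), and that over the 4 baits to between 3.26 and 4.12 points.

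In wild-type NSPC the direct share did not separate Aph + ART558 from Aph. It was 15.4%, 24.3%, 20.3% and 14.6% against 29.3%, 22.1% and 15.4% with the chr6 bait, and 21.64%, 22.38%, 21.87% and 22.96% against 22.3%, 20.9%, 19.3% and 18.2% with the chr14 bait. The difference averaged over both baits was -0.80 percentage points (8 against 7 libraries), negative with the chr6 bait (-3.64) and positive with the chr14 bait (2.05), and turned to 0.486 points without the 5 most frequent bait ends of each bait. It was 0.957 points without replicate 1 and -2.50 points without replicate 3 of wild-type Aph with the chr6 bait. Between genotypes in Aph, Xrcc4/p53-deficient libraries lay 3.11 points below wild-type libraries (4 against 7 libraries). This difference of -3.11 points was -8.56 points as a share of overlaps of 0 to 10 bp, -6.95 points with the replicate block, -1.47 points without the most frequent bait ends, -1.36 points without replicate 1 of wild-type Aph with the chr6 bait and -4.82 points without replicate 3 of that group. In Aph + ART558 with the chr6 bait they lay 4.43 points above them (3 against 4 libraries), with overlapping ranges. That difference turned to -1.14 points as a share of overlaps of 0 to 10 bp and was 1.75 points without the most frequent bait ends.

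**Figure D1:**
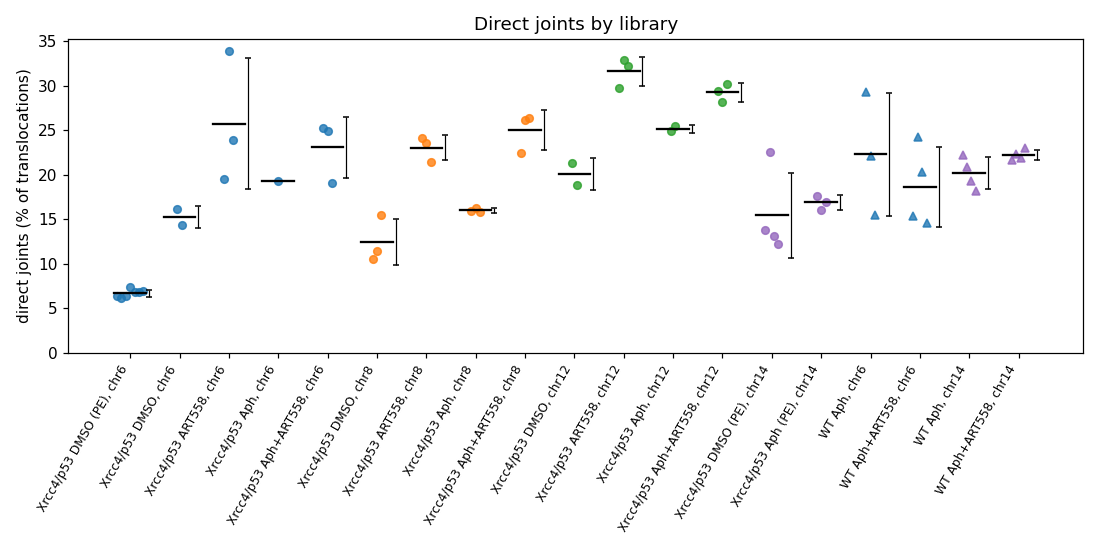
Direct joints as a percentage of all translocations (vertical axis) in every library, by group (horizontal axis). Circles are Xrcc4/p53-deficient and triangles wild-type libraries, colours mark the bait chromosome, horizontal bars the group mean and vertical bars 1 SD, and PE marks libraries of the promoter/enhancer experiment; with the chr8 and chr12 baits every ART558 library lies above every DMSO library.

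Libraries with the same genotype, solvent and bait differed between experiments of the series. The Xrcc4/p53-deficient libraries whose titles lack the mark of the inhibitor collection, 7 with the chr6 bait and 7 with the chr14 bait, are called here those of the promoter/enhancer experiment, because the series design gives these baits and this parental line to it and their library names begin with Ctnna2 or Nrg3. In the 7 DMSO libraries of this kind with the chr6 bait, direct joints were 6.12% (lowest), 6.80% (median) and 7.36% (highest) of translocations. The 2 DMSO libraries of the inhibitor experiment with the same bait had 16.1% and 14.4%, with no overlap. The promoter/enhancer libraries came from 6 other sequencing runs, so that run and experiment cannot be told apart, and they were kept out of the drug comparisons for this bait. For the chr14 bait all Xrcc4/p53-deficient libraries are of the promoter/enhancer experiment, and they enter the comparisons of Aph with DMSO and of the genotypes. With this bait genotype and experiment cannot be told apart either.

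Bait-end loss, the number of bait bases missing between the Cas9 cut and the joint, is not used by the rule and was tested over libraries with 2-sided exact permutation within bait. Direct joints of ART558 libraries had lost more of the bait than those of DMSO libraries. With the chr8 bait the library means were 32.1, 36.6 and 35.0 bp in ART558 and 19.7, 23.6 and 19.8 bp in DMSO. With the chr12 bait they were 58.0, 59.7 and 59.4 bp against 53.28 and 53.01 bp. The chr6 bait gave 17.8, 16.1 and 19.7 bp against 16.3 and 15.6 bp, and only here did the groups overlap. Averaged over baits the loss was greater by 7.12 bp with ART558 (exact permutation p = 0.001, adjusted p = 0.012 over 12 comparisons of bait-end loss and RDC share). Within shared sequencing runs, which leaves the chr6 and chr12 baits, it was greater by 3.91 bp (exact permutation p = 0.02). Without bait strata the difference fell short of the unadjusted threshold.

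With Aph present, the effect of ART558 on bait-end loss was 5.33 bp (exact permutation p = 0.046, adjusted p = 0.087) and did not pass the adjusted threshold of 0.05. It was largest with the chr8 bait, where the means were 33.8, 46.3 and 44.6 bp with Aph + ART558 and 24.0, 25.7 and 28.6 bp with Aph. The chr12 bait differed by -0.49 bp and the chr6 bait by 0.98 bp. The chr8 libraries of Aph and of Aph + ART558 were sequenced in different runs, and within a shared run the difference could be taken for the chr6 bait alone. With the 5 leading bait ends left out, described below, the difference was 8.30 bp (exact permutation p = 0.0037). Aph alone differed from DMSO by 3.23 bp (exact permutation p = 0.068, adjusted p = 0.090), and by 5.88 bp without the leading ends (exact permutation p = 0.00016). In wild-type NSPC, Aph + ART558 differed from Aph by 1.43 bp (exact permutation p = 0.45, adjusted p = 0.50), and the sign turned without masked prey (-1.75 bp, exact permutation p = 0.56) and without bait strata (-1.94 bp, p = 0.92).

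**Figure D2:**
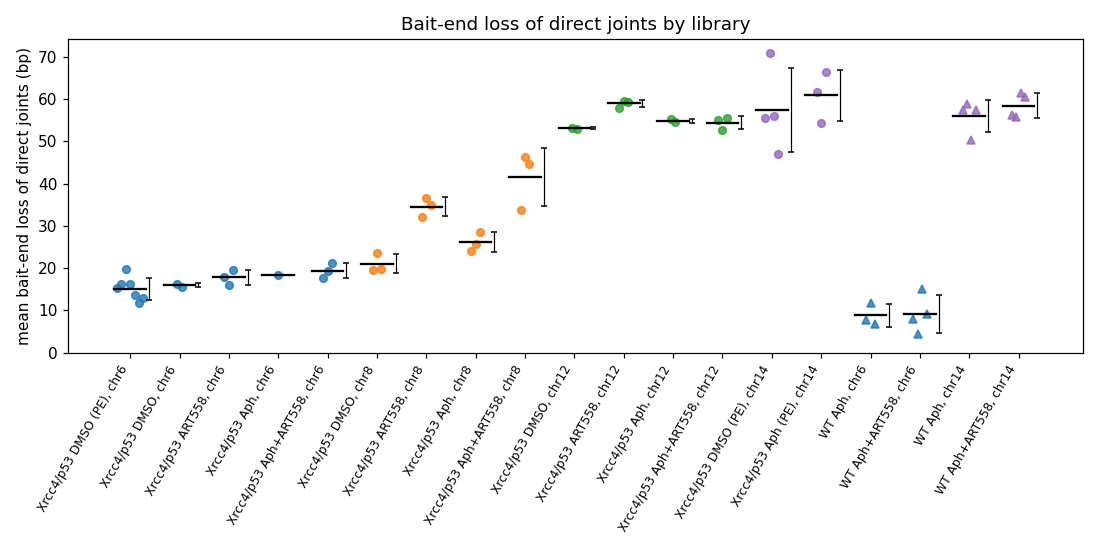
Mean bait-end loss of direct joints in bp (vertical axis) in every library, by group (horizontal axis), with circles for Xrcc4/p53-deficient and triangles for wild-type libraries, colours for the bait chromosome, horizontal bars for group means and vertical bars for 1 SD. Baits differ more than treatments, from 4.45 bp in a wild-type chr6 library to 71.0 bp in an Xrcc4/p53-deficient chr14 library of 30 direct joints.

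The bait ends of direct joints were not spread evenly but returned to a few positions. The 5 most frequent ends of each bait, capitalised above for the baits shown, held 42.8% of direct joints and 13.0% of the other translocations. They were picked from these direct joints, so the higher share is in part a matter of choice. With the chr6 bait the cut itself held 15.8% of direct joints, and a position 5 bp beyond the cut, within the PAM, held 11.5% against 0.864% of other translocations. Further ends lay 42 bp (7.20%), 14 bp (5.72%) and 54 bp (5.28%) before the cut. With the chr12 bait the cut was not among the leading ends, which lay 93 bp (12.8%), 43 bp (11.8%), 60 bp (7.77%), 45 bp (6.18%) and 70 bp (5.51%) before it. The chr8 bait had its leading end 26 bp before the cut (12.6%), and the chr14 bait had the cut (21.1%), followed by 81 bp (7.45%) and 90 bp (5.84%).

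**Figure D3:**
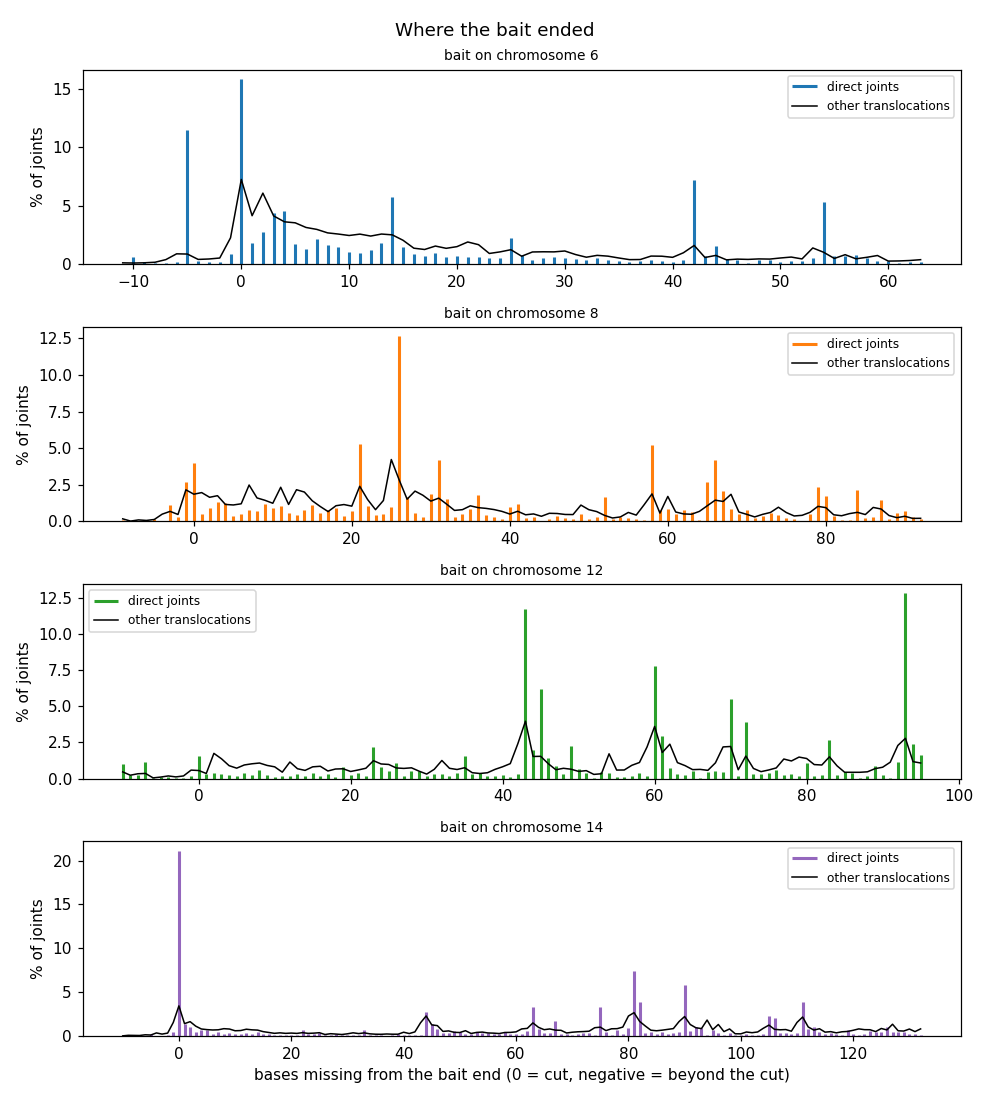
Percentage of joints (vertical axis) at each bait end, by the number of bases missing from the bait in bp (horizontal axis; 0 is the cut and negative values lie beyond it), with 1 panel per bait. Coloured bars are direct joints and the black line the other translocations; direct joints stand in single-base peaks such as the 12.6% at 26 bp of the chr8 bait.

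The recurrent ends away from the cut held a like share of direct joints in every treatment of the inhibitor experiment with the chr8 and chr12 baits, 29.3% to 33.9% and 42.7% to 45.3% of the pooled joints. The chr6 ends held 31.0% in DMSO, 48.7% in ART558, 43.2% in Aph and 39.9% in Aph + ART558. In the chr6 DMSO libraries of the promoter/enhancer experiment they held 6.57%, and the end 5 bp beyond the cut 0.448% against 10.5% in the DMSO libraries of the inhibitor experiment. In wild-type NSPC the chr6 figures were 11.3% with Aph and 4.71% with Aph + ART558.

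Direct joints at the intact cut, with no bait base lost, were far more frequent in wild-type NSPC than in the ES cell-derived Xrcc4/p53-deficient cells. With the chr6 bait they made up 52.7%, 55.5% and 20.9% of direct joints in wild-type Aph libraries and 6.65% in the Xrcc4/p53-deficient Aph library. With the chr14 bait they made up 24.3%, 23.1%, 32.3% and 28.0% in wild-type Aph libraries and 4.03%, 9.06% and 6.59% in Xrcc4/p53-deficient Aph libraries. The genotypes did not overlap with either bait. The other translocations of the same Aph libraries ended at the cut in 19.7%, 20.8% and 9.17% (wild-type) and 3.91% (Xrcc4/p53-deficient) with the chr6 bait. With the chr14 bait they did so in 3.51% to 5.05% and 1.69% to 2.83%, so that they too were higher in wild-type cells with both baits. For direct joints the difference was -28.4 percentage points in Aph (exact permutation p = 0.0071, the smallest this design allows, adjusted p = 0.037 over 6 comparisons of this measure). In Aph + ART558 with the chr6 bait it was -34.0 points (12.7% to 14.7% against 36.9% to 55.3%; exact permutation p = 0.029, the smallest this design allows, adjusted p = 0.043), and -31.6 points with each position counted once (exact permutation p = 0.057, short of the unadjusted threshold). Prey in repeat-masked sequence moved with the genotype for this bait, at 57.2% to 78.5% of direct joints in wild-type chr6 libraries and 24.2% to 38.4% in Xrcc4/p53-deficient ones of the inhibitor experiment. With masked prey left out, the difference was -29.2 points in Aph and -36.5 points in Aph + ART558.

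Joints at the intact cut were also fewer in ART558 than in DMSO within Xrcc4/p53-deficient cells, with a difference of -4.27 percentage points (exact permutation p = 0.018, adjusted p = 0.037), and fewer in Aph than in DMSO, with a difference of -3.78 points (exact permutation p = 0.019, adjusted p = 0.037). With the chr8 bait the shares were 16.7%, 8.70% and 10.5% in DMSO, 6.86%, 5.48% and 0% in ART558, and 7.69%, 3.43% and 4.81% in Aph. The 0% stands for 0 of 6 direct joints, which allows a share of up to 50%. With the chr6 bait the shares were 12.8%, 2.38% and 13.1% in ART558 and 13.7% and 13.2% in DMSO, a difference of -4.04 points. Without replicate 2 of that ART558 group it was -0.511 points, and over the baits -3.09 points (exact permutation p = 0.00083). With masked prey left out it was -4.11 points and short of the unadjusted threshold (exact permutation p = 0.067). Without replicate 3 of ART558 with the chr8 bait, the library of 6 direct joints, the ART558 difference also fell short of the unadjusted threshold (-3.58 points, exact permutation p = 0.053). It fell short too without replicate 1 of DMSO with the chr8 bait (-3.49 points, exact permutation p = 0.052) and without either DMSO library of the chr6 bait (-4.19 points, p = 0.086, and -4.35 points, p = 0.081). The Aph difference did so without the single chr6 Aph library (-2.76 points, exact permutation p = 0.095). By bait the Aph difference was -6.83 (chr6), -6.65 (chr8), -0.857 (chr12) and -0.766 points (chr14), and with the chr14 bait the groups overlapped. With the promoter/enhancer DMSO libraries of the chr6 bait added, neither difference passed the unadjusted threshold (-3.05 points, exact permutation p = 0.094, and -2.86 points, p = 0.087). Within shared sequencing runs the ART558 difference was -2.48 points (exact permutation p = 0.32) and the Aph difference -3.78 points (p = 0.029). Aph + ART558 did not differ detectably from Aph in either genotype, with 2.31 points in Xrcc4/p53-deficient cells (exact permutation p = 0.20) and 0.74 points in wild-type cells (p = 0.91). The first rests on the single chr6 Aph library, without which it was 0.0874 points. The second ran from -4.80 points without replicate 3 to 3.86 points without replicate 2 of wild-type Aph with the chr6 bait. This measure was added after the bait ends had been seen.

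The mean bait-end loss differed between genotypes in the same sense without passing the adjusted threshold. In Aph, direct joints of Xrcc4/p53-deficient cells had lost 7.25 bp more than those of wild-type cells (exact permutation p = 0.036, adjusted p = 0.087). With the 5 leading bait ends left out, the sign turned (-5.50 bp, exact permutation p = 0.34). In Aph + ART558 with the chr6 bait they had lost 17.6, 19.4 and 21.3 bp against 7.90, 4.45, 15.1 and 9.21 bp, a difference of 10.2 bp with no overlap (exact permutation p = 0.057, adjusted p = 0.087). The effect of ART558 added to Aph on bait-end loss was 0.98 bp in Xrcc4/p53-deficient and 0.35 bp in wild-type cells with the chr6 bait (exact permutation p = 0.94 for the difference), where the Xrcc4/p53-deficient effect rests on a single Aph library.

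Set against the other translocations of the same library, direct joints kept more of the bait in wild-type NSPC. Their bait-end loss was 34.7 bp on average against 48.8 bp for the others, a difference of -14.1 bp that held in 15 of 15 libraries (permutation p = 7e-05, adjusted p = 0.00056 over 8 such comparisons), and of -4.78 bp without the leading bait ends (permutation p = 0.00045). Shared bases of a micro-homology were counted as lost here, since a direct joint has none to share. In Xrcc4/p53-deficient cells the difference was -0.42 bp over 45 libraries (permutation p = 0.70, adjusted p = 0.94), with 20 libraries above and 25 below. It turned to 2.15 bp when shared bases were counted as kept by the bait (permutation p = 0.049), and was -2.73 bp without the leading bait ends (permutation p = 0.00016). By treatment it was 2.78 bp in DMSO, -6.94 bp in ART558 (-4.06 bp in the 8 libraries with at least 100 direct joints), 2.90 bp in Aph and -3.65 bp in Aph + ART558.

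The bait-end loss of ART558 libraries exceeded that of their controls by less at direct joints than at the other translocations. Against DMSO the other translocations lost 17.5 bp more and direct joints 7.12 bp more, a difference of -10.4 bp (exact permutation p = 0.0005, adjusted p = 0.003 over 6 comparisons). Leaving out 1 library at a time moved this difference to between -12.2 and -7.89 bp. In Aph the figures were 9.77 bp and 5.33 bp, a difference of -4.44 bp (exact permutation p = 0.011, adjusted p = 0.034). Without the leading bait ends this was -2.82 bp and no longer past the unadjusted threshold (exact permutation p = 0.14). In wild-type NSPC they were 1.79 bp and 1.43 bp (exact permutation p = 0.84). The chr8 libraries with and without ART558 came from different sequencing runs, as did the chr12 libraries of Aph and of Aph + ART558. Run and drug cannot be told apart there, and no value within shared runs was taken for this measure.

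RDC windows of 1 Mb were centred on 104 autosomal RDCs for which the source data of the study give a position, 2 of them from its wild-type list. The study counts more RDCs than these, and joints in the others were counted as lying elsewhere. The windows covered 3.98% to 4.23% of the autosomes open to a bait. They held 1665 direct joints, 4.91% of all direct joints, and 5.57% of the other translocations. Each of the 104 windows held at least 1 direct joint. The RDCs were defined in earlier work, and the study names Aph as commonly used to induce them. The choice of windows thus in part favours joints of Aph libraries. The RDC share of direct joints rose with Aph in Xrcc4/p53-deficient cells. With the chr12 bait it was 5.87% and 6.24% in Aph and 2.82% and 4.11% in DMSO. With the chr8 bait it was 8.65%, 4.67% and 7.69% against 4.17%, 5.43% and 3.76%, with overlap. With the chr6 bait it was 5.90% against 2.98% and 3.55%, and with the chr14 bait 6.45%, 8.16% and 6.87% against 4.88%, 6.67%, 7.84% and 6.10%, again with overlap. Over the 4 baits the rise was 2.14 percentage points (exact permutation p = 0.0025, adjusted p = 0.015 over the same 12 comparisons as bait-end loss), and 2.18 points within shared sequencing runs (p = 0.0028). With repeat-masked prey left out it was 1.25 points and no longer past the unadjusted threshold (exact permutation p = 0.14), and without the leading bait ends 3.71 points (exact permutation p = 0.00087).

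The RDC share of direct joints in these cells was lower with Aph + ART558 than with Aph. With the chr12 bait it was 5.83%, 4.93% and 4.42% with Aph + ART558 and 5.87% and 6.24% with Aph. With the chr8 bait it was 5.48%, 3.79% and 4.60% against 8.65%, 4.67% and 7.69%, with overlap. The chr6 bait gave 4.00%, 3.24% and 5.19% against 5.90%. Averaged over baits the share fell by 1.71 percentage points (exact permutation p = 0.011, adjusted p = 0.045), and by 3.16 points without the leading bait ends (exact permutation p = 0.0013). With the chr8 and chr12 baits run and drug cannot be told apart. Within a shared sequencing run only the chr6 bait gave a value (-1.75 points, exact permutation p = 0.50, with 3 libraries against 1, which cannot reach the threshold). The fall among the other translocations of the same libraries was 3.73 points, and the difference between both falls was 2.02 points (exact permutation p = 0.058, adjusted p = 0.12).

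ART558 without Aph differed from DMSO by 0.380 percentage points (exact permutation p = 0.64, adjusted p = 0.64), and by -0.246 points without replicate 1 and 0.801 points without replicate 3 of ART558 with the chr8 bait. With the chr6 and chr12 baits the groups did not overlap, at 3.67% to 5.03% in ART558 against 2.98% and 3.55% in DMSO and at 4.92% to 6.08% against 2.82% and 4.11%. The chr8 bait went against the others here, at 6.29%, 1.29% and 0% (0 of 6 direct joints) against 4.17%, 5.43% and 3.76%, and its ART558 and DMSO libraries came from different sequencing runs. Within shared runs, which leaves the chr6 and chr12 baits, the share was 1.53 points higher in ART558 (exact permutation p = 0.01). In wild-type NSPC the RDC share of direct joints was 6.34% with Aph + ART558 and 4.05% with Aph, a difference of 2.29 points that did not pass the threshold (exact permutation p = 0.058, adjusted p = 0.087) and turned to -0.380 points with windows of 2 Mb. It came past the unadjusted threshold with each position counted once (1.71 points, exact permutation p = 0.034), without the leading bait ends (4.65 points, p = 0.027), with windows of 0.5 Mb (2.11 points, p = 0.021), without bait strata (2.25 points, p = 0.046) and with the replicate block (1.54 points, p = 0.016), and was 4.81 points without masked prey (p = 0.075). Xrcc4/p53-deficient Aph libraries lay 2.48 points above wild-type ones (exact permutation p = 0.057, adjusted p = 0.087), and 4.75 points above them without the leading bait ends (exact permutation p = 0.0071). Without replicate 1 of wild-type Aph with the chr6 bait it was 1.92 points (exact permutation p = 0.019). In Aph + ART558 with the chr6 bait the difference was -1.92 points (4.14% against 6.06%, exact permutation p = 0.46, adjusted p = 0.50), and the sign turned with windows of 2 Mb (0.185 points). The ART558 effect was -1.75 points in Xrcc4/p53-deficient and 2.29 points in wild-type cells with the chr6 bait, and this difference of -4.04 points did not pass the threshold either (exact permutation p = 0.18), again with a single Xrcc4/p53-deficient Aph library.

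**Figure D4:**
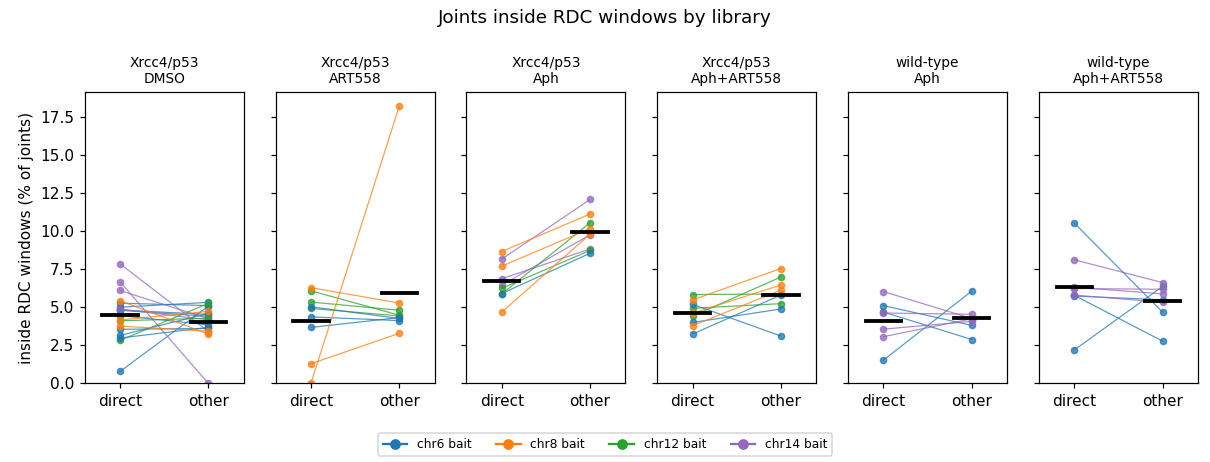
Percentage of joints inside RDC windows (vertical axis) for direct joints and for the other translocations of the same library (joined by a line, coloured by bait), with 1 panel per genotype and treatment and black bars for the means. All 9 Xrcc4/p53-deficient Aph libraries fall from other to direct (mean 9.94% to 6.72%), and the line that reaches 18.2% is the ART558 library with 28 translocations.

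In Xrcc4/p53-deficient Aph libraries, direct joints lay inside RDC windows less often than the other translocations in 9 of 9 libraries, by 3.22 percentage points (6.72% against 9.94%). Read the other way, direct joints were 13.4% ± 3.05 (SD, n = 9) of the translocations inside RDC windows and 19.2% ± 3.94 of those elsewhere. With Aph + ART558 they were 22.1% ± 4.97 inside and 26.0% ± 3.61 elsewhere, lower inside in 8 of 9 libraries. Without Aph the libraries were divided. In DMSO the RDC share of direct joints was 0.428 points above that of the others, higher in 10 of 18 libraries (-0.175 points in the 14 libraries with at least 100 direct joints), and direct joints were 16.7% ± 21.7 inside and 11.95% ± 5.25 elsewhere, or 11.2% ± 6.59 and 11.4% ± 5.36 in those 14 libraries. In ART558 the RDC share of direct joints was higher in 6 of 9 libraries. The mean difference was -1.80 points, and 0.251 points in the 8 libraries with at least 100 direct joints, which leaves out the library of 6 direct joints. No test was made within a treatment. Over all 45 Xrcc4/p53-deficient libraries, treatments pooled, the RDC share of direct joints was 1.07 points below that of the others (permutation p = 0.028, adjusted p = 0.057; -0.678 points without the ART558 library of 28 translocations), and in the 15 wild-type libraries 0.41 points above it (permutation p = 0.55, adjusted p = 0.88). Protein-coding gene bodies held 47.3% of direct joints and 48.8% of the others in Xrcc4/p53-deficient libraries, lower in 35 of 45 (permutation p = 0.0022, adjusted p = 0.0088), a difference that without the leading bait ends was -1.09 points and short of the unadjusted threshold (permutation p = 0.084). In wild-type libraries they held 42.0% and 45.4% (permutation p = 0.024, adjusted p = 0.057).

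No RDC reached 20 direct joints in the Aph and Aph + ART558 libraries of Xrcc4/p53-deficient cells, the minimum for a test of single RDCs. The highest count was 17. With a minimum of 10, 22 RDCs were tested by exact permutation and 0 were called in either direction (0% of those tested), also at an unadjusted p under 0.05.

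The RDC window with the most direct joints was that of Auts2, which encodes a regulator of transcription in neurons. It held 35 direct joints among 252 translocations (13.9%, 95% Wilson interval 10.2% to 18.7%), 12 of 31 in wild-type and 23 of 221 in Xrcc4/p53-deficient libraries. The intervals of RDC windows pool all libraries and cover counting error only, not the spread between libraries. Dcc, the netrin receptor, followed with 29 of 142, Magi2, a synaptic scaffold, with 29 of 155, and Lsamp, a cell adhesion molecule, with 29 of 157. Dab1, the adaptor of reelin signalling, held 28 of 97 (28.9%, interval 20.8% to 38.6%) and Ptprt, a receptor tyrosine phosphatase, 27 of 167. Csmd2, Mctp1 and Prkg1 held 25 each, and Adgrv1, an adhesion receptor, 24.

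Among the 27 RDC windows with at least 100 translocations the median direct share was 16.2%. The highest shares were those of Csmd2 (23.8%, interval 16.7% to 32.8%), Adgrl2, a latrophilin receptor (23 of 100), and Dpp10, an accessory protein of potassium channels (21.9%). The lowest were those of Sgcd, a sarcoglycan (8.21%, interval 4.65% to 14.1%), Cdh13, a cadherin (9.82%), and Pard3b, a polarity protein (10.0%). The intervals of the highest and the lowest do not overlap, but these windows were picked for their shares and no test was made. The shares also pool libraries whose own direct shares ran from 6.12% to 33.9%, in proportions that differ by window. Of the translocations in the Csmd2 window 40 came from DMSO and 16 from wild-type libraries, in the Sgcd window 20 and 29, and in the Cdh13 window 37 and 23.

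Among the windows with many direct joints in wild-type NSPC were Lsamp (16 of 70), Ccser1 (14 of 31), Dcc (14 of 46) and Auts2 (12 of 31). In Xrcc4/p53-deficient libraries the count in Ccser1 was 9 of 53. Of the other loci of the study, Ctnna2, alpha-N-catenin, held 20 of 115, 16 of them from Xrcc4/p53-deficient cells, and Nrg3, a neuregulin, held 20 of 141. Erbb4, a neuregulin receptor, held 8 of 94, 5 of 21 in wild-type and 3 of 73 in Xrcc4/p53-deficient libraries. Ccser1 and Ctnna2 lie on chromosome 6 and Nrg3 on chromosome 14, so that they could be joined only from the other baits.

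Single direct joints show what these counts are made of. The 5 below were chosen for a leading bait end and a prey in an RDC window, with 30 bait bases in lower case, then 30 prey bases in capitals, in the 5′ to 3′ direction of the read.
chr6 bait, 5 bp beyond the cut, to Auts2 at chr5:131537162-131537191 (plus strand): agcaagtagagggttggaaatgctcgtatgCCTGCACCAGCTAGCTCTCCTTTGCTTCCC
chr12 bait, 93 bp lost, to Prkg1 at chr19:31005680-31005709 (plus strand): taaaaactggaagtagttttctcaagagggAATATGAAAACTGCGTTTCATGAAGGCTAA
chr14 bait, 81 bp lost, to Ptprt at chr2:161538248-161538277 (plus strand): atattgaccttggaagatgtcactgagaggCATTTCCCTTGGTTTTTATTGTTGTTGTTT
chr6 bait, at the cut, wild-type, to the Grik2 window at chr10:49810243-49810272 (plus strand): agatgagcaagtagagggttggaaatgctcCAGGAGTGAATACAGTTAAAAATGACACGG
chr14 bait, at the cut, wild-type, to Magi2 at chr5:19801330-19801359 (plus strand): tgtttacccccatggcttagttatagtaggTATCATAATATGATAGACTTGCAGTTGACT
The prey named as Auts2, Prkg1, Ptprt and Magi2 lie within those protein-coding genes, and the prey in the Grik2 window lies in no protein-coding gene. In each of the 5 the prey begins at the base after the last bait base, with no shared and no added base.

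Direct joints were balanced between prey strands. The plus-strand share was 49.4% over 45 Xrcc4/p53-deficient libraries (permutation p = 0.20 against an even split, adjusted p = 0.40) and 49.7% over 15 wild-type libraries (permutation p = 0.81). The other translocations of the same libraries had 49.4% and 49.9%. All 7 chr6 DMSO libraries of the promoter/enhancer experiment lay below an even split, at 41.6% to 48.1%, and so did the other translocations of these libraries, at 44.9% to 49.2%.

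Most direct joints stood alone in the genome. Of 29545 pairs of a 1-kb prey window and a bait, 26836 (90.8%) held a single direct joint, and the highest count was 100. The leading windows were shared by the baits and lay in repeat-masked sequence. The window chr2:98666000-98666999 held 100 direct joints with the chr6 bait, 96 with chr12, 30 with chr14 and 25 with chr8, and chr2:98667000-98667999 was among the next 2 with every bait. The window chr14:19417000-19417999 was the other with the chr6, chr8 and chr12 baits and chr9:35305000-35305999 with chr14. Over all baits, 18.3% of the 1371 translocations in the first of these windows were direct, against 20.2% in the libraries that hit it.

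Some recurrent prey windows held few direct joints, among them a window with a sequence like the guide of its bait. Such sites were searched in 1-kb windows with at least 20 translocations after their values had been seen, and capitals mark the bases that differ from the guide and the PAM, with positions counted from 1 at the 5′ end of the guide.
chr6 guide, chr4:141560026-141560048 (minus strand), in no gene: AGgggCtggaaatgcCcgtGAGG
This site differs from the guide by G1A, A2G, T6C, T16C and A20G. There 12 of 218 translocations were direct, against 11.7% in the same 15 libraries. Low direct shares were not limited to such sites, since the window chr5:136982000-136982999, reached from all 4 baits and lying in masked sequence, held 7 direct joints among 233 translocations (3.00%, against 20.5% in the same 43 libraries).

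The prey sequence around direct joints was not random in its bases. With the joint between positions -1 and 1 and the retained prey starting at 1, the reference base at position 4 was T in 43.2% of Xrcc4/p53-deficient and 37.1% of wild-type direct joints, against 29.05% T in the autosomal reference. G stood at position 3 in 11.98% and 18.1%, against 20.97% in the reference. On the prey stretch that was not retained, position -4 held A in 40.7% and 31.0%, against 29.02% in the reference, and position -3 held C in 11.5% and 16.7%, against 20.96%. A purine 3 bases before together with a pyrimidine 3 bases after the joint was found in 50.2% of Xrcc4/p53-deficient and 35.6% of wild-type direct joints, and the opposite arrangement in 10.8% and 18.0%. Joints with a 1-bp insertion had the first arrangement in 28.0% and 28.6%. This pattern was noticed in the data, so its values are a description without a test, and the bases next to the joint are left out because the rule limits them.

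Libraries repeated the pattern. Direct joints exceeded joints with insertions in 43 of 45 Xrcc4/p53-deficient and 14 of 15 wild-type libraries. Xrcc4/p53-deficient groups of the inhibitor experiment had means of 47.9% to 56.5% for the baits on chr6, chr8 and chr12, apart from ART558 with the chr8 bait (57.4%, 60.6% and, in the library of 6 direct joints, 100%). The promoter/enhancer DMSO libraries with the chr6 bait had 30.7% ± 3.75 (SD, n = 7), next to 48.8% ± 2.22 (n = 2) in the DMSO libraries of the inhibitor experiment. Wild-type libraries had 37.1% ± 1.61 (n = 4) with Aph and 40.2% ± 2.38 (n = 4) with Aph + ART558 for the chr14 bait, and 26.1% ± 1.78 (n = 3) and 24.0% ± 6.08 (n = 4) for the chr6 bait.

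**Figure D5:**
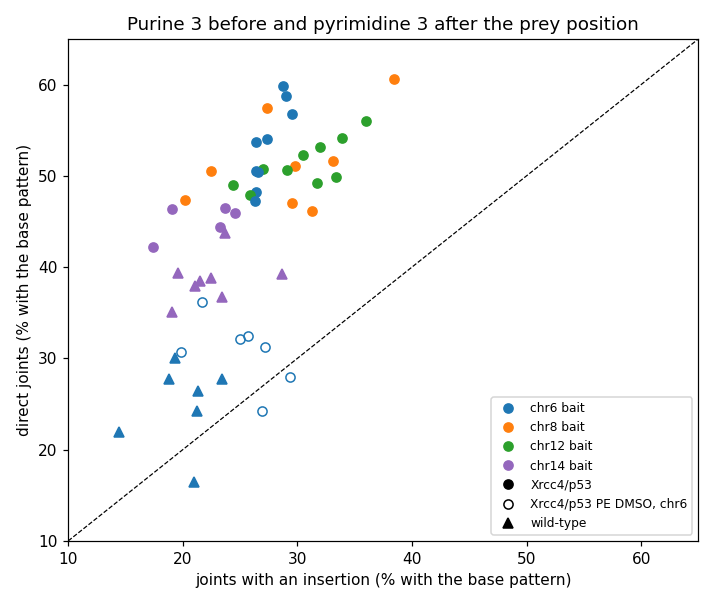
Percentage of direct joints (vertical axis) and of joints with an insertion (horizontal axis) that have a purine 3 bases before and a pyrimidine 3 bases after the prey position, in each library with at least 100 direct joints (circles Xrcc4/p53-deficient, open for the promoter/enhancer chr6 DMSO libraries, triangles wild-type, colours for the bait). Points above the dashed line of equality have the pattern more often at direct joints; 37 of 39 Xrcc4/p53-deficient and 14 of 15 wild-type libraries do.

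The pattern differed between bait ends. In Xrcc4/p53-deficient cells it stood at 59.5% of direct joints from the recurrent ends away from the cut, at 56.1% of those from the cut and at 43.4% of those from all other ends. In each group of these cells it was more frequent at the recurrent ends than at the other ends. In wild-type NSPC the pooled figures were 55.0%, 23.2% and 36.7%, and most of the joints from recurrent ends were of the chr14 bait (58.0% with Aph and 59.2% with Aph + ART558). With the chr6 bait the recurrent ends had it in 32.1% of 78 joints with Aph and 19.5% of 41 joints with Aph + ART558, against 30.7% and 21.1% at the cut and 21.6% and 25.4% at the other ends, so that the pooled order did not hold with this bait in either treatment. The bait had the same arrangement at its own recurrent ends away from the cut, at 10 of 18 such positions against 94 of 401 other bait positions.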

How the data were processed

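LAM-HTGTS junctions were measured in 60 mouse libraries. Per the methods of the study, the authors demultiplexed and trimmed reads with TranslocProcess, aligned them with Bowtie2 to mm10 and called junctions with TranslocWrapper. The deposited tables hold 1 junction per line as alignment positions, with replicates kept apart, and their values are other than counts, so that every count and percentage here was computed from them. Of these tables, 1 ended in an incomplete line, which was left out. Translocations were junctions to autosomes other than the bait chromosome, and overlap was taken from the bait end and prey start in the read.

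Bait-end loss was measured from the cut, 3 bp before the PAM. RDC windows of 1 Mb came from the study's positions. Groups were compared with 2-sided exact permutation within bait (the statistic is the mean over baits). Differences taken within each library (direct minus other, or strand share minus an even split) were tested by sign-flip permutation of 100000 resamples. That test used the mean over all libraries of a genotype, with treatments and baits pooled. Benjamini-Hochberg adjustment was made at 0.05, and the test was tested on simulated data. The RDCs named are the 10 with most direct joints, the 3 highest and 3 lowest shares at 100 or more translocations, the 5 with most in wild-type cells and the study's loci. Members, lists and rules were chosen with earlier results of these data known. Some RDCs and sequences under these rules are not reported here. Python 3.11.15, pandas 2.3.3, numpy 2.4.6, SciPy 1.17.1, pysam 0.24.0 and matplotlib 3.10.9 were used.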

Additional observations from a re-analysis of the deposited data

Results flagged for a closer look

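Of 35 checks (7 measures in 5 groups of 4 to 10 libraries), 2 found a library far from the rest of its group, where chance gives about 1 in 20. In Xrcc4/p53-deficient DMSO libraries with the chr14 bait, direct joints were 22.6% of translocations in replicate 2 and 12.2% to 13.8% in the other 3. In Xrcc4/p53-deficient promoter/enhancer DMSO libraries with the chr6 bait, 35.4% of direct joints of replicate 7 lay in repeat-masked prey sequence, against 29.9% to 31.8% in the other 6.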

How the results depend on the processing

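All values below are differences, first group minus second, in percentage points for shares and bp for bait-end loss, and thresholds here are an unadjusted p of 0.05. Alternatives with masked prey, the 5 leading bait ends or bait ends beyond the cut left out, all of those for joints at the cut, and those adding or leaving out promoter/enhancer libraries were chosen after seeing the data. Apart from leaving out a library, 238 results kept direction and side of the threshold, 20 turned sign, 32 fell short, 21 came past and 4 shares moved by more than the spread. The causes were not tested. Depth limits the libraries under 100 direct joints and the tests of single RDCs, which called 0 under each setting and each library left out (with a minimum of 10).

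The direct share moved to 7.97 for Aph + ART558 against Aph with overlaps of 0 to 10 bp as the base and to 3.73 within shared runs, and to -8.56 for genotype in Aph with that base. It turned to 0.486 in wild-type cells without the leading bait ends, and to -1.14 for genotype in Aph + ART558 with overlaps of 0 to 10 bp.

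Bait-end loss for ART558 against DMSO fell short without bait strata (8.41). For Aph + ART558 against Aph it fell short in libraries of at least 100 direct joints (6.62), without masked prey (4.23), within 60 bp of the cut (0.957), without ends beyond the cut (4.43), by medians (2.39), without strata (4.05) and within shared runs (0.983). For Aph against DMSO it came past the threshold in libraries of at least 100 direct joints (3.94), without leading ends (5.88), within 60 bp (5.10) and without ends beyond the cut (4.68). In wild-type cells it turned to -1.75 without masked prey and to -1.94 without strata. For genotype in Aph it fell short with each position once (6.94), without masked prey (6.01), by medians (8.33) and without strata (14.5), and turned to -5.50 without leading ends. In Aph + ART558 it came past without masked prey (12.7), within 60 bp (14.6) and without ends beyond the cut (14.7). The ART558 effect by genotype turned to -1.04 with each position once and to -1.25 without leading ends.

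The RDC share for ART558 against DMSO came past within shared runs (1.53), that for Aph + ART558 against Aph was -1.75 there, where the 4 libraries left cannot reach the threshold (likewise the loss above), and that for Aph against DMSO fell short without masked prey (1.25). In wild-type cells it came past with each position once (1.71), without leading ends (4.65), with 0.5-Mb windows (2.11) and without strata (2.25), and turned to -0.380 with 2-Mb windows. For genotype in Aph it came past with each position once (2.64), without leading ends (4.75), with 0.5-Mb windows (1.70) and without strata (2.76), and in Aph + ART558 it turned to 0.185 with 2-Mb windows. Joints at the cut fell short for ART558 against DMSO without masked prey (-4.11), without strata (-4.66), within shared runs (-2.48) and with promoter/enhancer libraries (-3.05), for Aph against DMSO without strata (-3.78) and with promoter/enhancer libraries (-2.86), and for genotype in Aph + ART558 with each position once (-31.6).

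The plus-strand excess turned to 0.134 in Xrcc4/p53-deficient cells without the promoter/enhancer chr6 libraries and to 0.0486 in wild-type cells with each position once. Direct joints against the others gave, in Xrcc4/p53-deficient cells, a bait-end loss past the threshold without leading ends (-2.73) and turned to 2.15 with shared bases kept by the bait, an RDC share that fell short without masked prey (-1.25), a gene-body share that fell short without leading ends (-1.09), and a strand difference that turned to -0.104 against micro-homology alone and -0.402 without leading ends. In wild-type cells the gene-body share fell short against micro-homology alone (-2.23), without masked prey (-2.90) and without leading ends (-3.27), and the strand difference turned to 0.430 with each position once and 0.425 without leading ends. The ART558 effect on direct joints minus that on the others turned, for the RDC share, to 0.616 against DMSO at 100 direct joints and to -1.90 in wild-type cells with 2-Mb windows, came past in Aph with each position once (2.20) and without masked prey (2.87), and, for bait-end loss, fell short in Aph without leading ends (-2.82) and turned to 0.608 in wild-type cells with each position once.

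Replicate numbers were not used as pairs in the main tests. Correlations of same-numbered libraries reached below 0.1 in every comparison. Their medians ran from -0.0557 to 0.227 and the highest value was 0.533, so that a pairing was neither shown nor excluded. With the replicate block, the direct share for genotype in Aph moved to -6.95, bait-end loss fell short for Aph + ART558 against Aph (4.55) and for genotype in Aph (8.01), the RDC share came past in wild-type cells (1.54), and joints at the cut fell short for Aph against DMSO (-3.43) and genotype in Aph (-33.0) and Aph + ART558 (-32.0) and turned to -0.294 in wild-type cells. The ART558 effect on the RDC share of direct joints minus that of the others came past in Aph (2.14). For genotype the block leaves too few pairs to reach the threshold. The block changed no other call.

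Leaving out each library in turn gave these ranges. For ART558 against DMSO the share was 9.52 to 11.9, the loss 6.78 to 7.56, the RDC share -0.246 to 0.801 and joints at the cut -4.88 to -3.09. For Aph + ART558 against Aph the share was 5.26 to 6.57, the loss 4.54 to 7.50 (short of the threshold in 11 of 15), the RDC share -2.10 to -1.44 and joints at the cut 0.0874 to 2.91. For Aph against DMSO the share was 3.21 to 4.12, the loss 2.36 to 4.36, the RDC share 1.93 to 2.43 and joints at the cut -4.39 to -2.76. In wild-type cells the share was -2.50 to 0.957, the loss 0.431 to 2.21, the RDC share 1.54 to 2.93 and joints at the cut -4.80 to 3.86. For genotype in Aph the share was -4.82 to -1.36, the loss 4.90 to 8.86, the RDC share 1.92 to 2.84 and joints at the cut -33.9 to -20.4. In Aph + ART558 the share was 3.08 to 6.42, the loss 8.67 to 12.2, the RDC share -3.20 to -0.427 and joints at the cut -37.6 to -31.4, where the 6 libraries left cannot reach the threshold. The ART558 effect by genotype was -0.941 to 2.62 for loss and -5.33 to -2.55 for the RDC share.

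The plus-strand excess was -0.775 to -0.409 in Xrcc4/p53-deficient and -0.799 to 0.328 in wild-type cells. Direct joints against the others gave, in Xrcc4/p53-deficient and wild-type cells in turn, a loss of -0.754 to 0.246 and -14.9 to -13.4, an RDC share of -1.24 to -0.678 and 0.0187 to 0.760, a strand difference of -0.162 to 0.292 and -0.896 to 0.555, and a gene-body share of -1.75 to -1.39 and -4.00 to -2.60. The ART558 effect on direct joints minus that on the others was, for loss, -12.2 to -7.89 against DMSO, -6.49 to -3.85 in Aph and -1.47 to 0.380 in wild-type cells, and for the RDC share -2.69 to 0.507, 1.60 to 2.38 and 0.126 to 2.04.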
